A study of Arabidopsis thaliana with 11 samples.

Results

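Wild type shoots of Arabidopsis thaliana seedlings were described from 3 arrays of the 11 in the series, those titled as wild type shoots, replicates 1 to 3. Each array read the RNA of a separate pool of about 24 Col-0 seedlings, grown for 14 days on sterile plates in continuous light (24 h a day), and the roots were removed at harvest. The other 8 arrays came from shoots of the same age and growth, 4 of plants carrying 35S::AtNF-YB1 (homozygous lines 3 and 6) and 4 of plants carrying 35S::CBF4 (lines 10 and 19), with 2 arrays per line. The 35S promoter is active in most plant cells, so neither transgene was limited to a tissue, and the wild type carried no transgene according to its label. The array, an Affymetrix GeneChip of custom design, held 19371 plant probe sets, and 11598 of them had exactly 1 gene name and covered 11320 gene loci.

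A young shoot is mostly green mesophyll. Its chloroplasts capture light in the photosystems and antenna complexes of the thylakoid membranes, and the Calvin cycle in the stroma uses the resulting ATP and reducing power to fix carbon. Around this core run the pathways that make chlorophyll, respire sugars, detoxify reactive oxygen and build cell walls, while genes of the gametes, the endosperm and the embryo serve elsewhere in the life of the plant.

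Values are probe set intensities, quantile normalized over the 11 arrays, raised to a floor of 1.90 intensity units (0.93 on the log2 scale) and given as log2 levels unless intensity is named. A probe set was called bright when its wild type mean reached 7.51, the 90th percentile of all plant probe sets, moderate from the median of 4.04 up to that, dim below the median, and at the floor when all 3 arrays lay on it. The brightness of a probe set depends on its probes as well as on the transcript, so a rank below is a rank of brightness and not of transcript number. In bulk tissue, fewer cells of a type and less RNA per cell cannot be told apart.

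The median plant intensity as deposited was 22.7, 12.8 and 19.5 on wild type arrays 1, 2 and 3, against 9.24 to 18.9 on the transgenic arrays, before normalization removed this difference. Array pairs correlated at Pearson's r = 0.973 (1 with 2), 0.974 (1 with 3) and 0.967 (2 with 3) over probe sets. Vector probe sets gave signal on arrays labelled wild type. The probe set for the E9 3′ UTR, a terminator used in plant vectors, read 137, 88.3 and 1164 intensity units on wild type arrays 1, 2 and 3, against 2.2 to 112 on AtNF-YB1 arrays and 504 to 591 on CBF4 arrays. The NOS 3′ UTR probe set, for the nopaline synthase terminator, read 0.498, −0.437 and 52.3 on the wild type arrays, against 154 to 705 on the transgenic arrays. The 95th percentile of the control probe sets with OBAR in their names was 8.98, 8.26 and 11.6 intensity units on the wild type arrays. E9 lay above it on all 3, and on array 1 also above all 4 AtNF-YB1 arrays, while NOS lay above it on array 3 only. The array labelled wild type replicate 3 thus read above this percentile for both vector probe sets. It was the highest of all 11 for E9 and below every transgenic array for NOS. A further vector probe set, for the CAMV 35S 3′ UTR, read −2.23, 0.782 and 1.81 on the wild type arrays. It lay below the percentile on all 11 arrays. What the E9 probe set reads on arrays 1 and 2 was not tested. Class counts below use all 3 arrays, and the list genes that change class without replicate 3 are named after the gene groups.

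Named probe sets lay more often below the median of all plant probe sets than above it. Among the 11598 named probe sets 888 (7.66%) were bright, 4264 (36.8%) moderate, 4607 (39.7%) dim and 1839 (15.9%) at the floor. From replicates 1 and 2 alone the counts were 896, 4267, 4310 and 2125, and 11111 probe sets (95.8%) kept their class. Dim names a position on the array and does not by itself tell whether signal was present. The OBAR control percentile given above was exceeded on all 3 arrays by 5710 named probe sets (49.2%). That is not far from the 5152 at or above the median. On none of the arrays was it exceeded by 4353. These are more than the 1839 at the floor, so many readings above the floor never exceeded it. The 7773 probe sets with no gene name were bright more often, at 13.5%, and lay at the floor less often, at 9.60%, so the named set is the dimmer part of the array. The brightest 10% of the plant probe sets held 60.8%, 61.4% and 63.8% of the summed intensity on arrays 1, 2 and 3.

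Probe sets that the RefSeq annotation assigns to protein-coding genes reached the median in 46.4% of 11074 cases. Those assigned to pseudogenes did so in 7 of 470 cases (1.49%), with 0 bright and 203 (43.2%) at the floor. Signal also differed between probe sets of the same gene. Of 214 genes read by several named probe sets, 142 had at least 1 at or above the median, and within these the highest and the lowest probe set differed by a median of 1.38 log2 units, with 85 genes (59.9%) over 1 unit apart. A dim or absent reading on this array is thus a reading of that probe set. The histogram of wild type levels shows where the classes begin and how strongly the named genes are stacked on the floor.

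**Figure D1:**
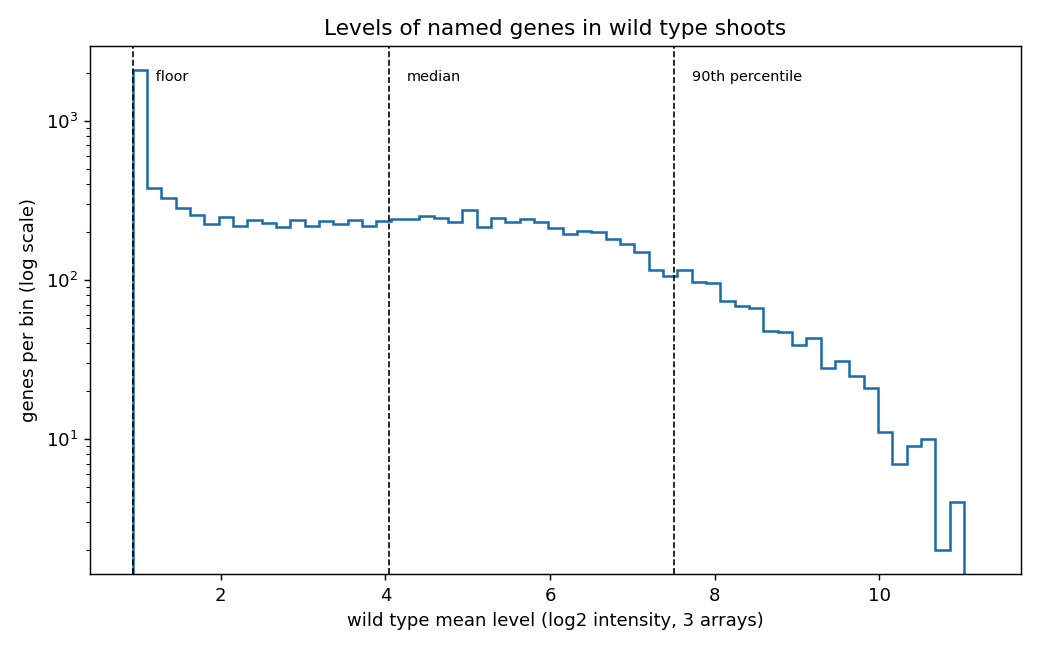
Number of named genes per bin (vertical axis, log scale) by mean log2 level over the 3 wild type arrays (horizontal axis), with dashed lines at the floor, the median (4.04) and the 90th percentile (7.51) of all plant probe sets. The 11320 genes pile up at the floor, where 1774 lie on all 3 arrays, and thin out toward the bright end, which holds 862.

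Photosynthesis led the ranking. Of the 20 named probe sets with the highest mean, which belong to 18 genes, 13 read 11 genes of the thylakoid and carbon fixation lists. Rubisco activase (RCA), which keeps Rubisco active by removing inhibitory sugar phosphates, had 2 of the 3 highest. One RCA probe set stood at 11.06, 11.02 and 10.82 on arrays 1, 2 and 3 and the other at 10.81, 11.06 and 10.93. PSAE-1, a stromal-side subunit of photosystem I, read 10.88, 10.87 and 10.96.

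The light-harvesting antenna was in the same range. LHCB4.1, which encodes the minor antenna protein CP29 of photosystem II, read 10.90, 10.93 and 10.80. LHB1B2, a major light-harvesting protein of photosystem II, read 10.96, 10.75 and 10.83. The small photosystem II subunit PSBY followed at 10.74, 10.71 and 10.74. On each of these probe sets the 3 pools lay close together, and over the 20 the SD ran from 0.0065 to 0.13 log2 units.

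The Calvin cycle was represented by PRK (phosphoribulokinase), which makes the acceptor for carbon dioxide, at 10.53, 10.55 and 10.56. SBPASE (sedoheptulose-bisphosphatase), which regenerates that acceptor, read 10.60, 10.59 and 10.38. ATPC1, the gamma subunit of the chloroplast ATP synthase, averaged 10.55 ± 0.07 (SD, n = 3), PSBW of photosystem II 10.49 ± 0.07, LHCB4.2 10.60 ± 0.01 and HPR, the peroxisomal hydroxypyruvate reductase of photorespiration, 10.50 ± 0.05. The remaining places went to PRXR1, a class III peroxidase, at 10.64 ± 0.09, to ECS1 at 10.61 ± 0.04, and to genes named by locus only. The highest of all was the probe set of AT2G25510, with 10.99, 10.96 and 11.06, or 2314, 1482 and 2672 intensity units as deposited.

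The order inside this group was not resolved. In 16 of the 19 pairs of neighbours in the ranking the means were closer than the larger of the 2 SDs. With any 1 wild type array left out, 18 or 19 of these probe sets remained among the 20 highest. Together they held 2.14%, 2.34% and 2.26% of the summed plant intensity on arrays 1, 2 and 3. Named probe sets were 6 of the 20 brightest plant probe sets of any kind, so most of the brightest readings had no gene name. Of the 20 named ones 7 carry a suffix for probes that match, or may match, more than 1 transcript, against 8.23% of all named probe sets, and near-identical relatives may add to those readings.

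**Figure D2:**
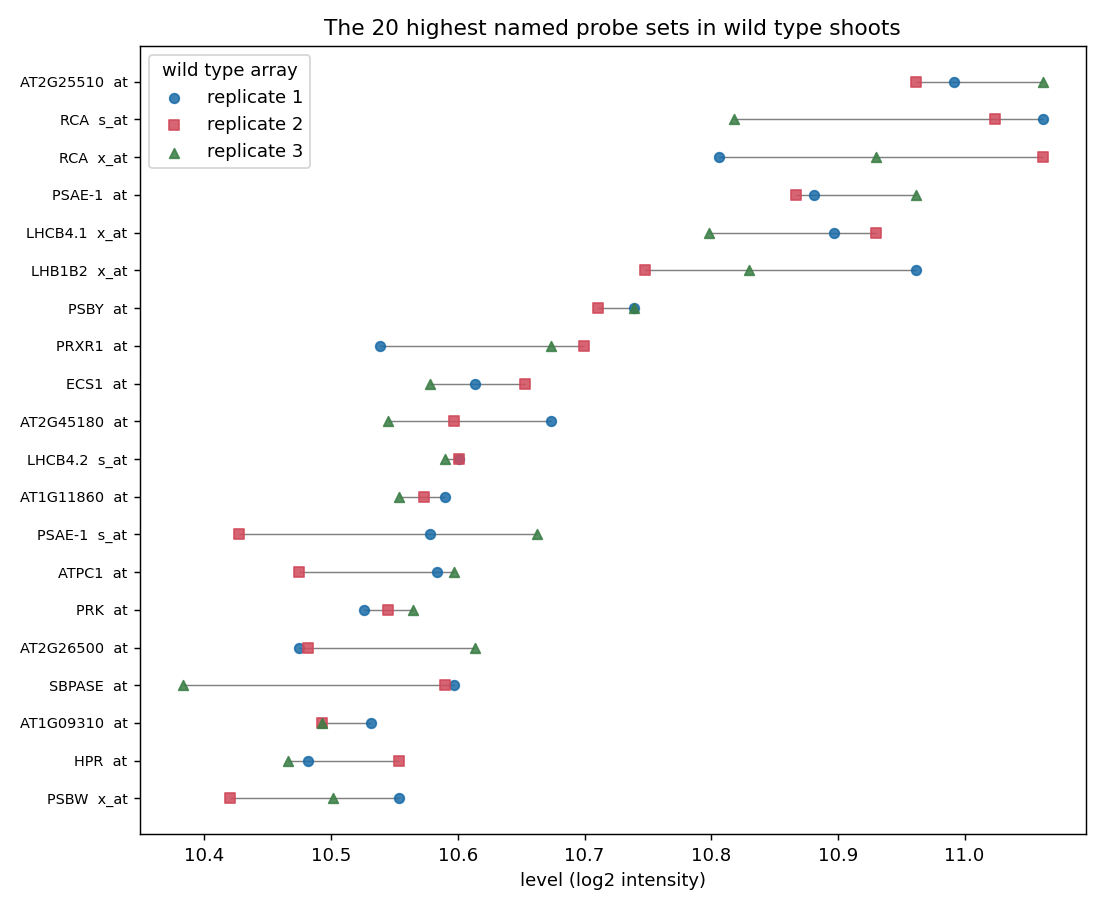
Log2 level (horizontal axis) on each of the 3 wild type arrays (1 marker per array, joined by a line) for the 20 named probe sets with the highest mean, ordered by that mean with the highest at the top. Every mean is at or above 10.49, and the ranges of most neighbours overlap.

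The thylakoid genes were bright almost throughout. Among 21 genes of the light reactions and their assembly 16 were bright and 5 moderate, with a median level of 9.53, against 3.58 over all 11320 named genes. PSAN, another photosystem I subunit, averaged 10.48 ± 0.04. Accessory proteins were bright as well, with the photosystem II repair protein PSB27 at 9.95 ± 0.12, the thylakoid calcium sensor CaS at 9.89 ± 0.11 and NdhL, of the NDH complex of cyclic electron flow, at 9.24 ± 0.23. The moderate ones included assembly factors. PGRL1B, of cyclic electron flow around photosystem I, averaged 7.34 ± 0.30, the photosystem II assembly factors LPA1 7.10 ± 0.20 and PAM68 6.98 ± 0.52, and the cytochrome c6-like CYTC6A 6.65 ± 0.29.

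Within pairs of related genes the readings went apart. ATPC2, the second gene for the gamma subunit of the ATP synthase, read 4.43, 4.41 and 4.41, just above the median of the array. LHCB4.3, a further CP29 gene, averaged 9.50 ± 0.11. PAM68 had the widest spread of the list, with 6.84, 6.54 and 7.56, highest on array 3. The genes differ in their probes too, so these gaps are gaps of brightness.

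Tetrapyrrole synthesis, which leads to chlorophyll, haem and sirohaem, covered the bright and moderate range. Of 10 genes 4 were bright, 5 moderate and 1 dim, with a median of 7.20. HEMB1, which joins aminolevulinic acid into porphobilinogen, averaged 8.89 ± 0.05. HEME2, a uroporphyrinogen decarboxylase, averaged 8.64 ± 0.06, PORB, the light-dependent protochlorophyllide reductase, 8.57 ± 0.02, and GSA1, which forms aminolevulinic acid, 8.29 ± 0.16. CHLI2, a subunit of the magnesium chelatase, read 6.84, 6.72 and 7.55, with array 3 the highest. HEMA2 and HEMA3 encode forms of glutamyl-tRNA reductase, the enzyme at the start of the pathway. HEMA2 averaged 5.08 ± 0.16, and HEMA3 read 0.93, 1.92 and 0.93, at the floor on 2 arrays.

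Central carbon metabolism was bright in 10 of 21 genes, moderate in 8, dim in 2 and at the floor in 1. TPI, the triosephosphate isomerase, led with 10.16, 10.06 and 9.78. The cytosolic glyceraldehyde-3-phosphate dehydrogenase GAPC2 averaged 8.73 ± 0.03 and the cytosolic NADP-isocitrate dehydrogenase cICDH 8.70 ± 0.09. Genes of the same enzyme lay in different classes. For the mitochondrial NAD-isocitrate dehydrogenase, IDH-V was bright at 7.81 ± 0.18, IDH-IV averaged 0.98 and IDH-III was at the floor on all 3 arrays.

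Succinate dehydrogenase, complex II of respiration, showed the same pattern. SDH1-1 averaged 6.71 ± 0.36, while SDH1-2 read 1.89, 1.25 and 3.02. ICL, the isocitrate lyase of the glyoxylate cycle that works on seed oil reserves, was near the median with 4.38, 4.87 and 3.88. Of the 18 genes at or above the median 13 were lowest on array 3, and their median deviation there was −0.14 log2 units. That is a small shift, and over all named genes at or above the median 29.8% were lowest on array 3.

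All 17 redox genes were bright (8) or moderate (9). ATHM2, a chloroplast m-type thioredoxin, read 10.25, 10.21 and 10.25. GME, the GDP-mannose epimerase of ascorbate synthesis, averaged 9.42 ± 0.11, the thioredoxin THX 9.37 ± 0.16, the glutaredoxin GRXC2 9.15 ± 0.27 and the thylakoid ascorbate peroxidase TAPX 8.38 ± 0.16. GLDH, which catalyses the last step of ascorbate synthesis in mitochondria, was the dimmest at 5.47 ± 0.44. Among 5 methionine sulfoxide reductases of the B type, which repair oxidised methionine, MSRB5 (8.18 ± 0.23) and MSRB6 (7.61 ± 0.16) were bright, and MSRB4 was dim with 2.78, 3.34 and 2.56.

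Structural genes of the nucleus and the cytoskeleton were also well above the median. Of 10 tubulin and actin genes 7 were bright and 3 moderate, led by the alpha-tubulins TUA3 at 8.58 ± 0.09 and TUA5 at 8.37 ± 0.07 and the beta-tubulin TUB9 at 7.99 ± 0.11. Of 14 histone genes 9 were bright, 3 moderate and 2 dim. The histone 3.3 gene AT4G40030 read 9.66, 9.64 and 9.65, one of the smallest spreads among bright probe sets. HTR12, the centromeric histone H3, was dim with 3.34, 3.25 and 3.93. Of the 12 histone genes at or above the median 9 were highest on array 3, where AT1G09200 reached 8.71 against 8.05 and 7.99 on arrays 1 and 2. Over all named genes at or above the median 40.6% were highest on array 3.

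Genes of protein turnover and membrane traffic filled the moderate class. All 10 ubiquitin-conjugating enzymes were bright (4) or moderate (6), with UBC28 at 8.80 ± 0.17 and UBC36 at 8.32 ± 0.09. By contrast, none of the 9 U-box ubiquitin ligases reached the median with all 3 arrays, and 1 did without array 3, PUB26 with 4.71, 3.66 and 3.39. PUB23 averaged 3.87 ± 0.17 and PUB22 2.95 ± 0.09, both known as negative regulators of immune signalling, and PUB15 was at the floor. Of 8 ubiquitin proteases 5 were moderate, 2 dim and 1 at the floor, with UBP24 the highest at 6.49 ± 0.27.

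The ESCRT genes, which sort membrane proteins into vacuole-bound vesicles, were moderate in 9 of 10 cases, from 5.12 ± 0.18 for VPS60.1 to 7.04 ± 0.26 for VPS46.2, with VPS24.2 at the floor. The ATG8 genes, whose proteins coat autophagosomes, gave 1 bright, 7 moderate and 1 floor reading. APG8H averaged 7.80 ± 0.15 and ATG8D 7.32 ± 0.02. ATG8F read −4.41, −4.32 and −3.28 intensity units as deposited, below 0 on all 3 arrays. Of 14 genes of the PRA1 family of small membrane proteins of the secretory pathway 10 were moderate, 3 dim and 1, PRA1.G1, at the floor. AVA-P1 and AVA-P2, which encode the proteolipid ring of the vacuolar proton pump, averaged 9.44 ± 0.03 and 8.13 ± 0.05.

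RNA machinery was mainly moderate. All 6 LSM genes, whose proteins form rings that guide mRNA decay and splicing, had means between 6.47 and 7.07, with a median SD of 0.24, against 0.19 over all named probe sets at or above the median. Of 5 RNA polymerase II subunit genes NRPB12 was bright at 7.65 ± 0.05 and 4 were moderate. Pentatricopeptide repeat proteins, which process and edit transcripts of chloroplasts and mitochondria, stood lower. CRR21 was moderate at 5.92 ± 0.10, and the other 9 of 10 were dim, with a list median of 3.30. Array 2 was the lowest for all 6 LSM genes and for 9 of 10 ubiquitin-conjugating enzymes, against 42.6% of all named genes at or above the median.

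Plant defensins were among the bright genes. These small cysteine-rich antifungal peptides are known as markers of the jasmonate and ethylene response. PDF1.2 read 9.25, 9.24 and 9.93 and PDF1.2b 9.37, 8.66 and 10.08. PDF1.3 read 9.01, 8.76 and 10.03 and PDF1.2c 8.74, 8.87 and 9.78, while PDF1.5 was near the floor at 3.04, 0.93 and 0.93. All 4 bright defensins were highest on array 3, as was the thionin THI2.2 with 4.33, 3.74 and 5.76. On that array the vector signal given above was high, and its part in these readings was not tested. From replicates 1 and 2 alone the 4 defensins stayed bright and THI2.2 lay just below the median, with a mean of 4.03. The PDF1.2b, PDF1.2c and PDF1.3 probe sets carry a suffix for possible cross-hybridization, so these close relatives cannot be counted as separate readings.

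Glucosinolates are the sulphur-rich defence compounds of the cabbage family. BCAT4, which starts the chain elongation of methionine toward them, averaged 9.29 ± 0.26, and UGT74B1, a glucosyltransferase of their core structure, 7.91 ± 0.21. The transporters GTR1 (6.44 ± 0.34) and GTR2 (6.38 ± 0.26) and the transcription factors MYC4 (6.17 ± 0.18) and MYC3 (5.62 ± 0.26) were moderate. AOP3, which makes hydroxyalkyl side chains, was at the floor on all 3 arrays.

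The ER body, a store of beta-glucosidase that meets its substrates when cells are damaged, gave readings that were mostly lower on array 3. Its major enzyme PYK10 read 8.88, 8.25 and 7.66, the ER body protein NAI2 6.41, 6.57 and 5.35, and NAI1, the transcription factor that controls both, 5.43, 5.08 and 3.74. The jacalin-related lectins that associate with PYK10 ran alongside. JAL34 read 8.07, 7.93 and 7.10, JAL22 7.91, 7.52 and 6.63 and JAL33 7.45, 7.09 and 6.49. Array 3 was the lowest for 3 of 4 ER body genes and 4 of 5 lectin genes, against 29.8% of all named genes at or above the median. In each list 1 gene was lowest on array 2, among them JAL31 with 5.60, 4.62 and 4.62. None of the 9 ER body and lectin genes was highest on array 3. The median deviation there was −0.68 for the ER body list and −0.52 for the lectin list. PYK10 is best known from roots, and EXPA7, an expansin of root hairs, stayed dim with 2.03, 1.11 and 1.56. How much residual root tissue adds to these readings was not tested.

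Large families of secondary metabolism spread over all classes. The named probe sets as a whole did so too, with 7.66% bright, 36.8% moderate, 39.7% dim and 15.9% at the floor. Of 41 UDP-glycosyltransferases 3 were bright, 17 moderate, 15 dim and 6 at the floor, with a median of 3.97. UGT88A1 led at 8.28 ± 0.17, and the flavonol glycosyltransferases UGT78D2 (7.26 ± 0.12) and UGT78D1 (7.09 ± 0.23) were moderate. None of the 20 at or above the median was highest on array 3, and the widest spread among them was that of UGT87A2, with 7.52, 6.79 and 6.17. GSTU20, a tau-class glutathione transferase, was bright at 10.13, 10.06 and 9.96, and GSTL3, of the lambda class, averaged 8.90 ± 0.03. Among 19 CYP71B cytochromes P450 0 were bright, 9 moderate, 7 dim and 3 at the floor, with CYP71B6 the highest at 6.91 ± 0.07.

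Beta-glucosidases and serine carboxypeptidase-like proteins were divided in the same way. Of 16 beta-glucosidases 2 were bright, BGLU44 (8.44 ± 0.18) and PYK10, 5 moderate, 5 dim and 4 at the floor. Of 20 carboxypeptidase-like genes SCPL49 (8.16 ± 0.13) and scpl35 (7.89 ± 0.15) were bright, 5 were moderate, 6 dim and 7 at the floor.

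Cell wall genes were mainly moderate or dim, as were the named probe sets as a whole (36.8% moderate and 39.7% dim). Of 18 TBL genes, a family that acetylates wall polysaccharides, 1 was bright, 10 moderate and 7 dim, led by TBL45 at 7.59 ± 0.11. TBL39 had the widest spread among those above the median, with 4.39, 3.29 and 5.10. Of 15 GH9 endoglucanases 1 was bright, GH9B7 at 7.71 ± 0.28, 3 moderate, 9 dim and 2 at the floor. Among 14 expansins, which loosen the wall during growth, 5 were moderate and 8 dim. EXPA8 read 6.96, 6.81 and 7.89, highest on array 3, and EXPA4 averaged 6.63 ± 0.36. Of 5 XTH genes for xyloglucan-remodelling enzymes XTH16 (6.40 ± 0.43) and XTH32 (6.17 ± 0.23) were moderate.

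Among the SWEET sugar transporters 1 was bright. SWEET11, which exports sucrose from leaf phloem parenchyma for loading, read 9.06, 8.95 and 9.01. The other SWEET genes were dim, 9 of 11, apart from SAG29, also called SWEET15, a gene of senescing leaves, at 6.11, 4.39 and 4.08. Of 11 tetraspanins 4 were moderate, led by TET8 at 7.17 ± 0.33, 5 dim and 2 at the floor. CHX20, a cation exchanger of guard cells, was alone among 5 CHX genes in having a mean above the median, with 3.97, 4.58 and 4.29, and 3 of the others were at the floor. Of 8 glutamate receptor-like channels only GLR3.3, known for long-distance wound signals, was above the median, with 4.21, 5.04 and 4.36.

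Transcriptional regulators differed between families. Of 9 WRKY transcription factors WRKY20 (5.85 ± 0.14) alone was at or above the median, and WRKY53, known from leaf senescence, averaged 3.45 ± 0.41. Of 11 bZIP factors 5 were moderate. BZIP60 (5.85 ± 0.31) and BZIP28 (5.24 ± 0.28) respond to unfolded proteins in the endoplasmic reticulum, and bZIP19 (5.44 ± 0.28) and bZIP23 (5.27 ± 0.21) to zinc deficiency. Among 6 Aux/IAA repressors of auxin response IAA18 averaged 6.24 ± 0.21 and the others were dim (3) or at the floor (2).

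Among the cytokinin response regulators RR16 averaged 5.19 ± 0.35, with 2 of 6 dim and 3 at the floor. Of 13 IQD genes, which encode calmodulin-binding proteins, 7 were moderate, 5 dim and 1 at the floor. Of 6 calmodulin-like genes 4 were moderate and 2 dim, and CML42, known from leaf hairs and defence, averaged 5.83 ± 0.23. RALFL34, a secreted signalling peptide of the RALF family, was bright at 8.90 ± 0.16, RALFL32 averaged 5.92 ± 0.18, and the other 4 RALF-like genes were at the floor on all 3 arrays.

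Genes of reproduction had little signal. Of 5 EC1 genes, which encode egg cell peptides that act at fertilisation, 0 reached the median and 3 were at the floor. Of 14 genes of pollen, meiosis and seed 2 were moderate, 7 dim and 5 at the floor. PPME1, a pectin methylesterase of pollen, was at the floor on all 3 arrays, and the related VGD1 read 2.1, 1.11 and 0.93. The embryo regulator BBM was at the floor, the oleosin OLEO3 averaged 2.23 ± 0.39, and BAN, of seed coat tannin synthesis, 1.71 ± 0.69. The exceptions were PLIM2b, a LIM protein known from pollen, at 4.60 ± 0.11, and SPO11-2, of meiotic recombination, at 4.77, 3.65 and 4.86, both just above the median. Of the 8 tissue markers 4 were bright, RCA and LHB1B2 of mesophyll, the phloem exporter SWEET11 and PYK10, best known from roots, at 8.26 ± 0.61. The guard cell factor FMA was moderate at 4.97 ± 0.12, the root hair gene EXPA7 and the pollen gene VGD1 were dim, and the pollen gene PPME1 was at the floor. PYK10 and EXPA7, both known from roots, thus lay in different classes.

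**Figure D3:**
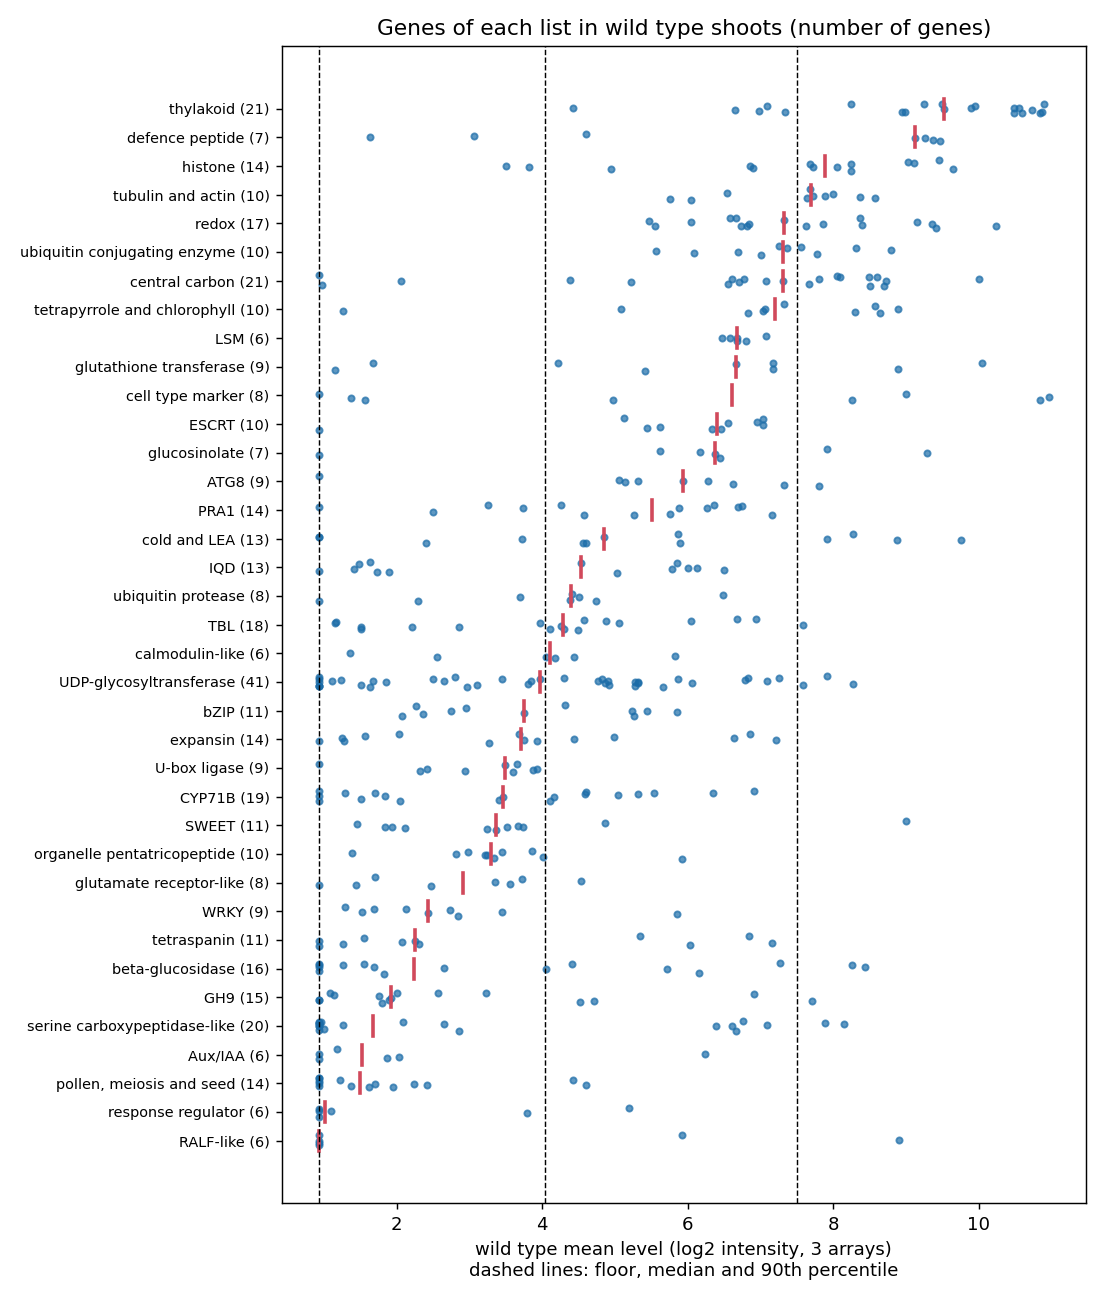
Mean wild type log2 level (horizontal axis) of each gene (point) in the lists of at least 6 genes, 1 row per list with its number of genes in brackets and its median as a red bar; dashed lines mark the floor, the median (4.04) and the 90th percentile (7.51) of all plant probe sets, and points are shifted vertically to keep them apart. The thylakoid row sits at the bright end, with a median of 9.53.

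Cold- and desiccation-related genes were present at widely different levels in plants that had met no cold treatment in the labels. The dehydrin gene AT1G54410 (HIRD11) was bright with 9.82, 9.84 and 9.62, and AT2G44060 (LEA26) averaged 8.88 ± 0.09. KIN2, a small cold-induced protein, read 8.22, 8.12 and 8.49, and the dehydrin COR47 8.23, 7.64 and 7.86. The chloroplast-targeted COR15B read 5.42, 5.47 and 6.81 and its paralog COR15A 6.60, 5.57 and 5.45, so array 3 was the highest for COR15B and the lowest for COR15A. LEA4-5, of the late embryogenesis abundant proteins, read 5.46, 2.73 and 2.98, high on array 1 only. Of the 13 genes 4 were bright, 5 moderate, 3 dim and 1 at the floor.

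Without array 3, 475 of the 489 list genes kept their class and 14 changed it. PUB26, OTP70 of the pentatricopeptide list and LEA4-5 became moderate, with means of 4.19, 4.18 and 4.1 on arrays 1 and 2. THI2.2, GSTU23 and TBL39 became dim, at 4.03, 3.97 and 3.84, and the lectin gene JAL22 became bright at 7.72. The other 7, CYP71B25, TBL31, TBL21, GH9B11, TET6, GLR2.9 and IAA34, had their only reading above the floor on array 3 and lay at the floor without it.

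Spread between the 3 pools was small for most genes. Over the 5152 named probe sets at or above the median the median SD was 0.19 log2 units. The SD within the transgenic lines, pooled over 4 lines of 2 arrays, had a median of 0.22. The wild type SD was the larger in 43.5% of these probe sets. An SD from 3 arrays and a pooled SD are distributed differently even at equal spread. These values therefore do not tell which spread was larger. For 962 probe sets (18.7%) the SD was below 0.1, and for 273 (5.30%) it was above 0.5. Spread was smaller at higher brightness, with a median SD of 0.095 at 9 log2 and above against 0.26 between the median and 5 log2, and 6 of the 888 bright probe sets had an SD above 0.5. Among the 273 most variable, the array farthest from the other pair was array 1 for 57, array 2 for 98 and array 3 for 118. In the transgenic lines 62 of these 273 (22.7%) also had a within-line SD above 0.5, against 4.79% of all 5152.

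**Figure D4:**
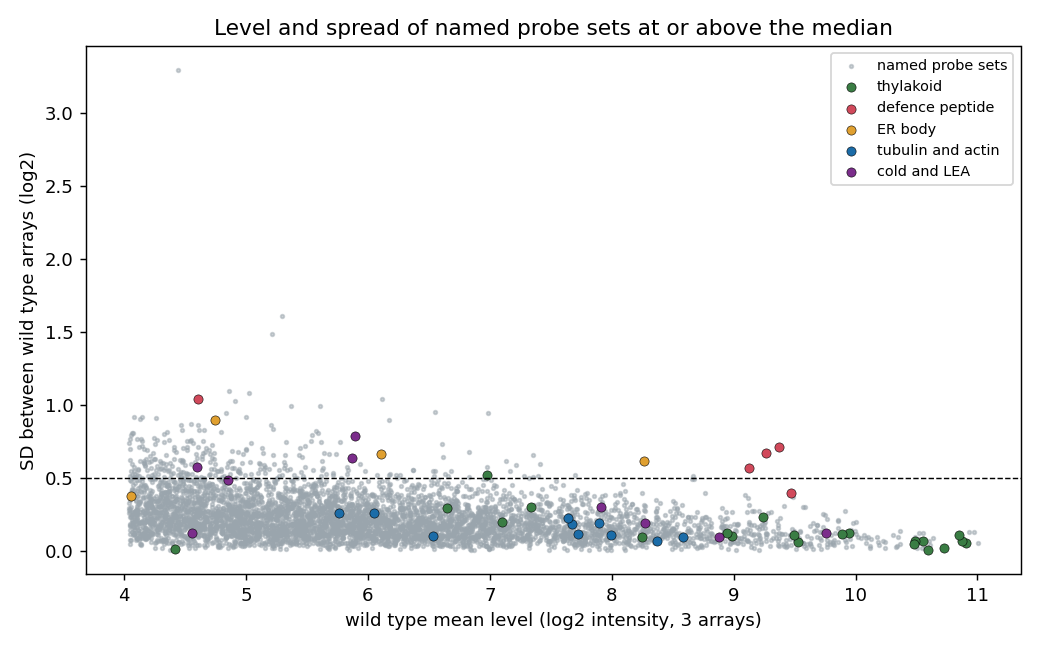
SD over the 3 wild type arrays against the mean log2 level, both in log2 units, for the 5152 named probe sets at or above the median (grey), with the genes of 5 lists in colour and a dashed line at an SD of 0.5. The line is passed by 273 probe sets, and 3 of the 4 bright defensins lie above it at a level where most probe sets lie far below.

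Very steady readings came from diverse genes. Among bright probe sets the smallest SD was 0.0036, for AT5G39570, with 9.03, 9.02 and 9.02. WLIM2b, an actin-binding LIM protein, read 7.96, 7.95 and 7.96, and LHCB4.2 10.60, 10.60 and 10.59. At these levels quantile normalization maps each array onto the same set of values, so a small SD says that a probe set held nearly the same rank in all 3 pools.

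The largest spread belonged to AT3G02480, with 7.89, 1.33 and 4.1 on arrays 1, 2 and 3, or 312, 2.08 and 20.2 intensity units. It also ran from 0.93 to 3.32 over the AtNF-YB1 arrays and from 0.93 to 6.04 over the CBF4 arrays, so its spread was wide in all 3 genotypes. AT2G20870 read 4.03, 4.75 and 7.11, and its value on array 3 lay above the transgenic range of 3.62 to 4.72. AT2G43620 read 6.40, 5.69 and 3.55, against 4.78 to 5.50 in AtNF-YB1 shoots and 6.86 to 8.21 in CBF4 shoots, so its array 3 value was the lowest of the 11. SAG29, the SWEET15 gene, came next with 6.11, 4.39 and 4.08, against 1.82 to 4.56 on the transgenic arrays.

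Of the 15 probe sets with the largest SD, array 3 was the one apart in 10, lower in 8 of them and higher in 2. AT5G64120, the peroxidase gene PRX71, was one of those lower there, with 6.55, 5.70 and 4.58. AT1G76960 read 7.39, 6.75 and 5.51 and AT4G01870 7.58, 7.48 and 5.90, both lowest on array 3. THI2.2 and AT2G20870 were the pair that was higher there. Array 1 was apart for AT3G02480, SAG29 and AT4G12500, and array 2 for AT4G17610 and AT5G62360. Without replicate 3, 4 of the 15 remained among the 15 most variable, and without replicate 1, 8 did, so this selection rests on single arrays and above all on the array with vector signal.

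**Figure D5:**
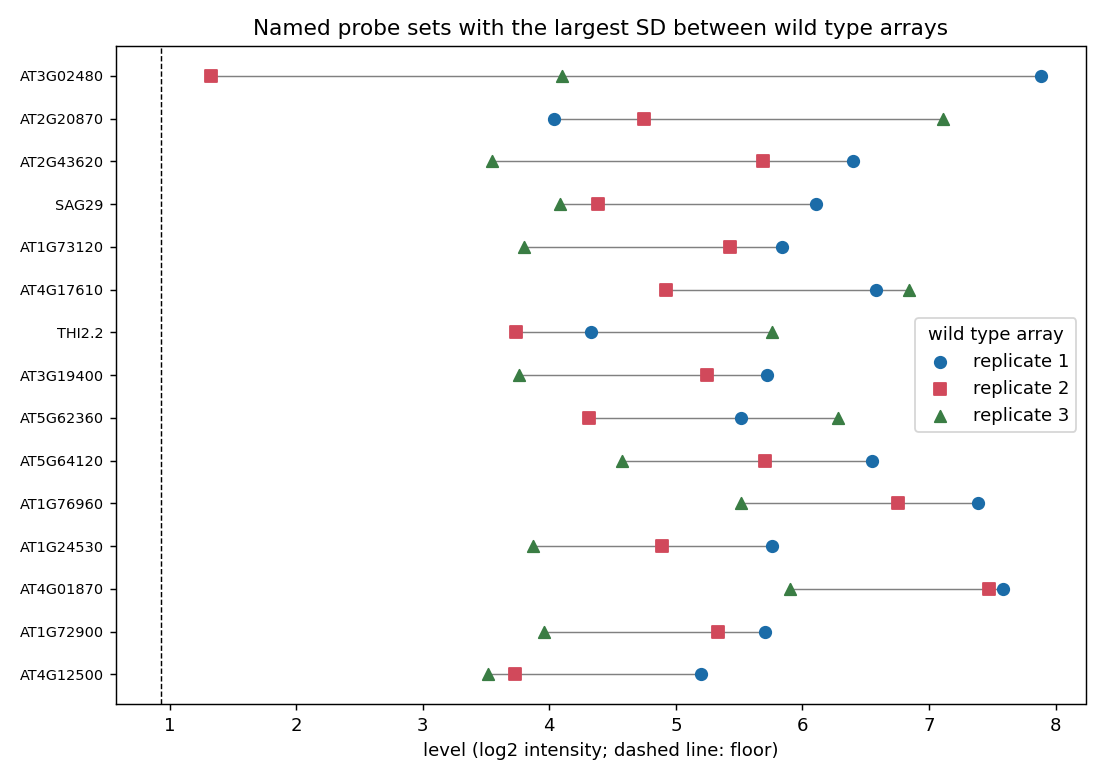
Log2 level on each wild type array (1 marker per array, joined by a line) for the 15 named probe sets with the largest SD among those at or above the median, widest at the top, with a dashed line at the floor. Array 3 lies apart from arrays 1 and 2 in 10 of the 15 rows, and the widest row, AT3G02480, runs from 1.33 to 7.89.

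Several variable genes that carry a symbol, picked out after their values were seen, also had array 3 apart. Fes1B, a cochaperone homologue of the heat shock system, read 4.78, 4.64 and 6.20. APS4, an ATP sulfurylase of sulphate assimilation, went the other way with 6.96, 7.10 and 5.76. Of the genes described above, PDF1.3 and NAI1 belong to the same group. PDF1.2b and PYK10 do not, as their 3 values were spaced about evenly. PDF1.2b read 9.37, 8.66 and 10.08, and PYK10 stepped down from array 1 to array 3 with 8.88, 8.25 and 7.66.

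The wild type shoots were finally set against the 8 transgenic arrays in a limma fit across all 19374 plant and vector probe sets, as wild type minus the mean of the 4 lines. After Benjamini-Hochberg adjustment 4 probe sets (0.0206% of those tested) passed the threshold of 0.05, all 4 lower in wild type, and 0 were higher. At an unadjusted p below 0.05 there were 898 (4.64%), 440 higher and 458 lower in wild type. Among the called probe sets 2 had a gene name, and both read cold-regulated genes.

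COR15B, on the probe set MRT3702_9983C.2_s_at, read 4.83, 4.82 and 5.63 in wild type, with a mean of 5.10, against 5.41 to 5.67 in AtNF-YB1 shoots and 9.70 to 10.05 in CBF4 shoots and a transgenic mean of 7.72. The difference was −2.63 ± 0.19 log2 units (SE), with an adjusted p of 0.0254 from limma. KIN2 read 8.22, 8.12 and 8.49 in wild type, against 8.26 to 8.58 in AtNF-YB1 shoots and 10.21 to 10.31 in CBF4 shoots. Its difference from the mean of all 4 lines was −1.09 ± 0.09, with an adjusted p of 0.0407 from limma. For both genes the wild type range overlapped with the AtNF-YB1 range through array 3 alone, arrays 1 and 2 lay below it, and all CBF4 arrays lay above both. CBF4 is a transcription factor of the family that induces COR and KIN genes.

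The second COR15B probe set, at 5.42, 5.47 and 6.81 in wild type, overlapped with its AtNF-YB1 range of 6.34 to 6.77 through array 3 and did not pass, at −2.44 with an adjusted p of 0.103. COR15A differed by −2.27 (adjusted p 0.108), KIN1 by −2.01 (0.152) and COR47 by −0.66 (0.73), and none of these passed in limma. In wild type these 3 genes also overlapped with the AtNF-YB1 range, of 5.0 to 6.59 for COR15A, 4.22 to 4.91 for KIN1 and 7.34 to 8.07 for COR47. Leaving out wild type replicate 1 or 2 ended the calls of COR15B and KIN2, with adjusted p-values of 0.0855 and 0.067 for COR15B and 0.169 and 0.0886 for KIN2. Without replicate 3 both kept their call, at −2.90 and −1.20, and 19 probe sets passed in all. With line as a random block neither gene passed, with an adjusted p of 1 for both in limma and an SE of 1.365 for COR15B and 0.572 for KIN2. Neither passed without scaling (0.785 for COR15B and 1 for KIN2), and KIN2 did not pass with arrays centred on their medians (0.194). Both unnamed probe sets that passed were lower in wild type too, MRT3702_12660C.2_at by −1.86 ± 0.12 and MRT3702_11388C.2_at, which lay at the floor in wild type, by −0.23.

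Defensins stood at the other end without passing. PDF1.2b averaged 9.37 in wild type, against 8.10 in the transgenic shoots, a difference of 1.27 ± 0.33 with an adjusted p of 0.73 in limma. With all 3 arrays this was the largest difference in size among the 888 bright named probe sets. Without array 3 it was 0.91, against 0.93 for PDF1.2c and −1.20 for KIN2, which was then the largest in size. PDF1.3 differed by 1.26, PDF1.2c by 1.25 and PDF1.2 by 1.0. All 3 arrays of wild type lay above the CBF4 range of 6.88 to 7.92 for PDF1.2b, while the AtNF-YB1 range of 8.51 to 8.89 overlapped with wild type.

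In brightness class the wild type shoot differed little from the rest of the series. Of the 888 bright named probe sets 857 (96.5%) also had a transgenic mean at or above 7.51. Of the 1839 at the wild type floor 1069 (58.1%) were at the floor on all 8 transgenic arrays as well, and 0 had a transgenic mean at or above the median, the highest being 2.40 for AT1G10810. Over the named probe sets at or above the median 18 of 5152 differed by more than 1 log2 unit. Their median difference was 0.01 log2 units, but quantile normalization had mapped every array of the series onto the same set of values. A small median difference was thus largely set in advance and does not measure how alike the shoots were. The photosynthesis lists showed median differences of −0.05 for 21 thylakoid genes and −0.04 for 4 carbon fixation genes. No member was called, but only 4 of all 19374 probe sets (0.0206%) were, so this says nothing particular about these lists. At an unadjusted p below 0.05 in limma there were 1 thylakoid gene and 0 carbon fixation genes, against 4.64% of all probe sets.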

How the data were processed

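RNA of 11 shoot pools was amplified, labelled with biotin and hybridized to 1 GeneChip each, per the labels' protocols. The authors deposited 1 linear intensity per probe set and array, some below 0, and how they were summarized, background-corrected or scaled is not given in the sources used here. Control probe sets were left out. The remaining 19374 were quantile normalized over 11 arrays, values under the 20th percentile were raised to it, and log2 was taken. Gene names came from the platform annotation: 11598 probe sets had 1 name, 0 had several and 7773 had none, and 11547 names matched the RefSeq table of TAIR10.1 (51 did not). In the 46 gene lists (489 genes) the probe set with the highest wild type mean stood for its gene.

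Wild type minus transgenic was tested with limma (lmFit, eBayes, two-sided, 5 line groups, 6 residual degrees of freedom, no block), adjusted by Benjamini-Hochberg. The series text calls the replicates biological; p-values measure the spread between pools, and the number of arrays limits the precision. Tested on simulated data of 19374 probe sets, the fit recovered 68 of 100 changes of 1 log2 unit and 98 of 100 of 2, with 15 false calls. The simulation used independent noise, no difference between lines and no floor. Its changes lay in probe sets at or above the median and were equal against all 4 lines. The recovery thus does not hold for changes in 1 construct or for dim probe sets. Named were the 20 highest and the 15 most variable probe sets, up to 3 leading members and the widest spread of each list, markers, and called genes; other list members were named after their values were seen. The members and lists were chosen with earlier results of these data known. Alternatives covered scaling, floor, model and left-out arrays. Same-numbered arrays deviated from their group means with correlations of −0.25 to 0.17, over 0.1 in 5 of 20 pairs, so the numbers do not pair samples. Tools were R 4.3.3, limma 3.58.1, Python 3.11.15, pandas 2.3.3 and matplotlib 3.10.9.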

Additional observations from a re-analysis of the deposited data

Results flagged for a closer look

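Among the wild type arrays, replicate 3 carried signal for vector sequence that a wild type plant should lack. Its E9 3′ UTR probe set read 1164 intensity units, against 137 and 88.3 on wild type replicates 1 and 2, and its NOS 3′ UTR probe set read 52.3, against 0.498 and −0.437. E9 on replicates 1 and 2 also lay above the 95th percentile of the OBAR control probe sets, 8.98 and 8.26, while NOS there did not. Neither probe set enters the description of the plant genes. The source of the signal was not tested.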

How the results depend on the processing

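The 20 highest probe sets were the most stable result: 18 to 20 of them stayed among the 20 highest under every alternative run. The count of named probe sets at the floor (1839) became 3193 with the floor at the 30th percentile and 2060 to 2163 with 1 wild type array left out. Spread depended on scaling. The count with an SD above 0.5 (273) was 2717 without scaling, 56 with an offset of 16 in place of the floor, and 284 to 489 with 1 wild type array left out, highest without replicate 1. The median SD (0.19) was 0.51 without scaling, 0.15 with the offset and 0.14 to 0.19 with 1 wild type array left out. Of the 15 most variable probe sets 8 remained without scaling and 4 to 11 with 1 wild type array left out, fewest without replicate 3. Leaving out replicate 3, an alternative chosen after seeing the data, kept 283 list genes at or above the median, the number with all 3 arrays.

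The 4 calls of wild type against transgenic became 1 without scaling, 13 with the floor at the 30th percentile, 12 with dim probe sets left out, 7 with lines pooled to constructs, 0 with line as a random block, 7 with limma-trend and 9 with array weights. Leaving out 1 array gave 1 to 145 calls, with 145 reached without AtNF-YB1 line 3 replicate 1; without a wild type array it gave 1, 4 and 19 (replicates 1, 2 and 3), and without any other transgenic array 41 to 61. The replicate block also gave 4 calls, with KIN2 at an adjusted p of 0.056. COR15B lost its call without scaling (0.785) and with the random block (1), and KIN2 also with arrays centred on their medians (0.194). No direction reversed. The cause of these shifts was not tested. A floor at the 10th percentile was not run, since it lies below 0 and has no log, and the setting without a floor gives no floor count. With 3 arrays, readings near the floor cannot be ordered.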
